A study of Mus musculus with 4 samples.

Results

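NKG2D is an activating receptor through which natural killer (NK) cells and some T cells recognise stressed, infected or transformed cells. The transcripts described here encode NKG2D itself, its signalling partners and the surface proteins it binds. Of 7 genes considered, 5 had a probe set in the array table, out of 19297 genes with a name there. They comprised 2 of 4 ligand genes (Raet1d and H60b) and all 3 genes of the receptor side (Klrk1, Hcst and Tyrobp). Each was found by its gene symbol in the platform annotation and had 1 probe set that carried no other symbol. The ligand genes H60c and Ulbp1 were not analysed here.

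The spleens came from 2 leukaemic mice and 2 wild type mice, with 1 array of total RNA per mouse. The leukaemic mice had the genotype RBP-J flox/flox;Ren1dcre/cre and developed B cell leukaemia, and the wild type mice were RBP-J flox/flox;Ren1d+/+, so all 4 carried floxed RBP-J on the 129Sv background and the groups differed in cre at the renin locus Ren1d. Leukaemic replicate 1 was a female of 107 days with a spleen of 0.7 g, and leukaemic replicate 2 a male of 93 days with a spleen of 0.47 g. The wild type mice were females of 80 and 81 days with spleens of 0.12 g and 0.16 g. Genotype, age and spleen weight therefore cannot be told apart from the leukaemia, and cre activity in individual spleen cells was not measured. Sex was not balanced either, as leukaemic replicate 2 was the only male.

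In the mouse, NKG2D is a lectin-like receptor without a signalling tail of its own. It reaches the cell surface and signals through DAP10, the product of Hcst, which recruits phosphoinositide 3-kinase, and in the mouse also through DAP12, the product of Tyrobp, which carries an ITAM motif and recruits Syk and ZAP-70. Its ligands are distant relatives of MHC class I: the Rae-1 family (Raet1 genes), the H60 family and MULT1 (Ulbp1). They are scarce on most healthy adult cells and can be induced by cell stress, DNA damage signalling and proliferation, and their display can mark a tumour cell for killing.

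The Rae-1 genes are close copies, which bears on what a Raet1d probe set can report. RefSeq promoter windows of GRCm38.p6, a C57BL/6J assembly, are shown for Raet1d and for its relative Raet1e, aligned over 200 bases without gaps, with capitals at the 3 positions where they differ. The Raet1d window is chr10:22361644-22361843 (plus strand), from 250 to 51 bases before the start of its promoter entry. The nearest listed transcript of Raet1d starts 18 bases past the window. The Raet1e window is chr10:22173249-22173448 (plus strand), before the second of its listed starts.

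Raet1d: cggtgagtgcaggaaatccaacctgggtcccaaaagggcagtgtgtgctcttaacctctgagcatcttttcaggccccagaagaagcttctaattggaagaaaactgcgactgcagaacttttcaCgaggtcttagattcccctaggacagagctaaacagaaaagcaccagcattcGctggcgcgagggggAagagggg

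Raet1e: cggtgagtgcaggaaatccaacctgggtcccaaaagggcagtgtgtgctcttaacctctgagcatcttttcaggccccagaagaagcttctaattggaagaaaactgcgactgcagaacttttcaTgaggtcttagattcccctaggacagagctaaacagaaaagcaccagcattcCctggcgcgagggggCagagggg

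Over the whole promoter entries, 295 of 298 aligned bases were identical at this start of Raet1e, against 82 of 292 at the first listed start. Raet1a, Raet1b, Raet1c, Raet1e and H60a had no probe set under their own name and were not analysed here. The printed windows lie before the listed starts, so they do not show how alike the transcribed sequences are. The mice were 129Sv, strains differ in the Rae-1 genes they carry, and probe sequences were not analysed here. A signal of the Raet1d probe set may therefore include other Rae-1 transcripts, and values given for Raet1d are those of its probe set.

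For the receptor side, the windows of Klrk1, chr6:129623915-129624114 (minus strand), and of Hcst, chr7:30419905-30420104 (minus strand), cover the same distance before the starts of their promoter entries. The nearest listed transcript starts 12 bases past the Klrk1 window and 51 bases past the Hcst window. Capitals mark a match to the RUNX core.

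Klrk1: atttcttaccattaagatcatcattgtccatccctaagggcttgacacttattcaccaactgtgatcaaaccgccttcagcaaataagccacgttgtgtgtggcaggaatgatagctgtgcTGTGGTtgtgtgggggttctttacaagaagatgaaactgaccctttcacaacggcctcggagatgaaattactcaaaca

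Hcst: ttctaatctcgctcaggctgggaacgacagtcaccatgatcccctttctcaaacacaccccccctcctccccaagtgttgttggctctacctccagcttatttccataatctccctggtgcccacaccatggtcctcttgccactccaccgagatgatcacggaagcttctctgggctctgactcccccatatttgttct

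In all 7 motifs were counted on both strands of the full 300-base entries. They were the GC box GGGCGG, the E2F sequence TTTNGCGC, the TATA box TATAAA, the CCAAT box CCAAT, the PU.1 core GAGGAA, the RUNX core TGTGGT and the E box CACGTG. The Raet1d entry held 1 match each to the GC box, the CCAAT box and the PU.1 core, present in 35.7%, 37.4% and 28.3% of all 32851 entries. The Klrk1 entry held 1 match each to the CCAAT box and to the RUNX core, the second present in 16.8% of entries, and Hcst held none of the 7. These matches describe letters only.

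Transcripts of the ligand genes were higher in the leukaemic spleens, and those of the receptor and both adaptors were lower. The genes were chosen by their place in the NKG2D pathway with the leukaemic against wild type values of this same comparison in view, so their differences are given as a description and without a test. Raet1d, a Rae-1 family ligand, had log2 expression values of 10.29 and 8.62 in leukaemic replicates 1 and 2, against 5.05 and 4.88 in wild type replicates 1 and 2. Both leukaemic values lay above both wild type values, with a gap of 3.57 between the nearest pair. The group means were 9.46 ± 1.18 in leukaemic and 4.97 ± 0.12 in wild type spleen (SD, n = 2 each), a difference of 4.49 (SE 0.47) or 22.5-fold. It was number 3 from the top among the differences of all 19297 genes.

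H60b, an H60 family ligand gene, had values of 9.09 and 7.93 in leukaemic replicates 1 and 2, against 4.96 and 6.42 in wild type replicates 1 and 2. The groups did not overlap, but both were widely spread. Their means were 8.51 ± 0.82 in leukaemic and 5.69 ± 1.03 in wild type spleen (SD, n = 2 each), a difference of 2.82 (SE 0.52), or 7.05-fold, and number 17 from the top among all genes. For both ligand genes leukaemic replicate 1 was the higher leukaemic mouse, by 1.68 for Raet1d and by 1.16 for H60b.

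**Figure D1:**
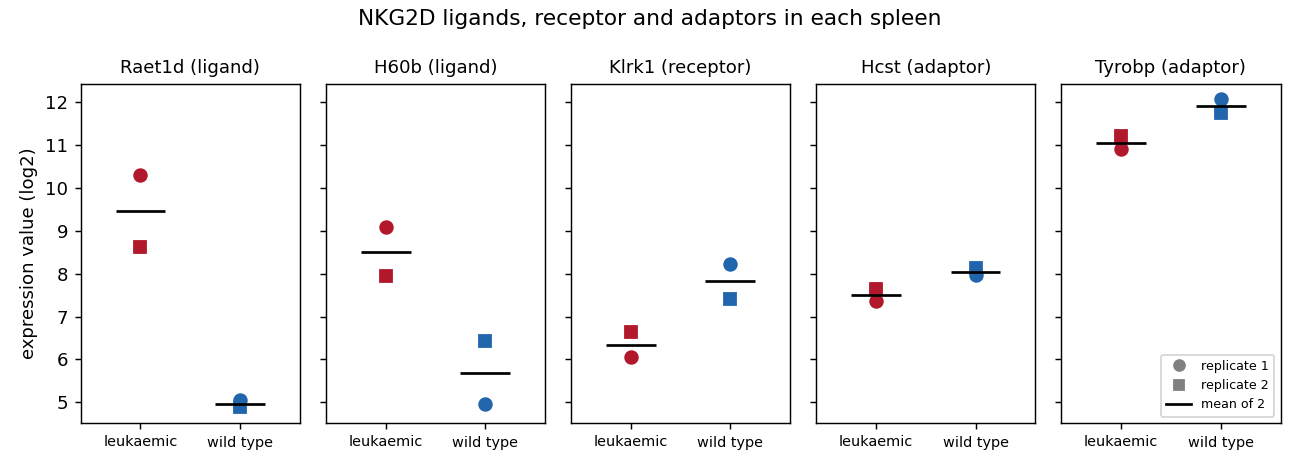
Log2 expression value (vertical axis) of each member in the 2 leukaemic (red, left) and 2 wild type (blue, right) spleens, with circles for replicate 1, squares for replicate 2 and a line at the mean of 2. The groups stand apart for every member, the ligand genes being higher and the receptor and adaptor genes lower in leukaemic spleen; heights of different genes are not comparable, as each comes from its own probe set.

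Klrk1, which encodes NKG2D, had values of 6.05 and 6.63 in leukaemic replicates 1 and 2, against 8.22 and 7.41 in wild type replicates 1 and 2. Both leukaemic values were below both wild type values, with 0.78 between the nearest pair. The means were 6.34 ± 0.41 in leukaemic and 7.82 ± 0.57 in wild type spleen (SD, n = 2 each), a difference of -1.47 (SE 0.30) or 2.78-fold lower. In whole spleen, fewer cells that express a gene and less of its RNA per cell cannot be told apart.

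Tyrobp, the DAP12 adaptor gene of NK and myeloid cells, had values of 10.89 and 11.20 in leukaemic spleens, against 12.07 and 11.73 in wild type spleens. Its difference was -0.85 (SE 0.18), with means of 11.05 ± 0.22 in leukaemic and 11.90 ± 0.24 in wild type spleen (SD, n = 2 each). Hcst, the DAP10 adaptor gene, differed least, with 7.37 and 7.65 in leukaemic spleens against 7.96 and 8.12 in wild type spleens. Its difference was -0.53 (SE 0.16), from means of 7.51 ± 0.20 in leukaemic and 8.04 ± 0.11 in wild type spleen (SD, n = 2 each), and the gap between the nearest mice of the groups was 0.31.

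A gene was called when limma's adjusted p was under 0.05 in a fit across all genes. By that rule both ligand genes were called higher, where 1.43% of all genes were, and none of the 3 receptor and adaptor genes was called lower, where 1.03% of all genes were. These counts describe the values that chose the genes, and nothing is read from them. A fit that leaves out a wild type mouse rests on a single wild type array, so its calls are not read for the members. The groups did not overlap for any of the 5 members, as for 49.2% of all genes, counting both directions. The median difference was 3.65 over the ligand genes and -0.85 over the receptor side, against -0.03 over all genes.

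**Figure D2:**
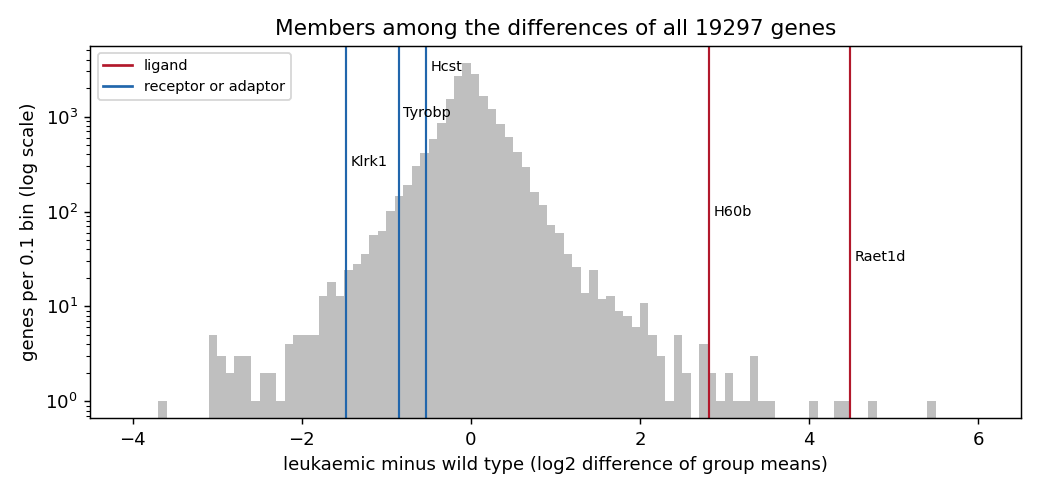
Histogram of the leukaemic minus wild type difference (log2, horizontal axis) of all 19297 genes, on a log count axis in bins of 0.1, with lines at the ligand genes (red) and at the receptor and adaptor genes (blue). Raet1d at 4.49 and H60b at 2.82 lie in the thin upper tail, Klrk1 at -1.47 lies in the lower tail, and Tyrobp at -0.85 and Hcst at -0.53 lie nearer to the bulk.

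The sizes of the differences depended on single mice. The Raet1d difference was 3.65 when leukaemic replicate 1 was left out and 5.33 when leukaemic replicate 2 was, and that of H60b was 2.24 and 3.40 in the same order. Leaving out wild type replicate 1 or 2 put H60b at 2.09 or 3.55, while Raet1d stood at 4.57 or 4.40. The Klrk1 difference ran between -1.88 without wild type replicate 2 and -1.07 without wild type replicate 1. Over the same omissions Tyrobp ran between -1.02 and -0.68 and Hcst between -0.67 and -0.39. Since the groups do not overlap for these genes, leaving out a mouse could not turn a sign.

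**Figure D3:**
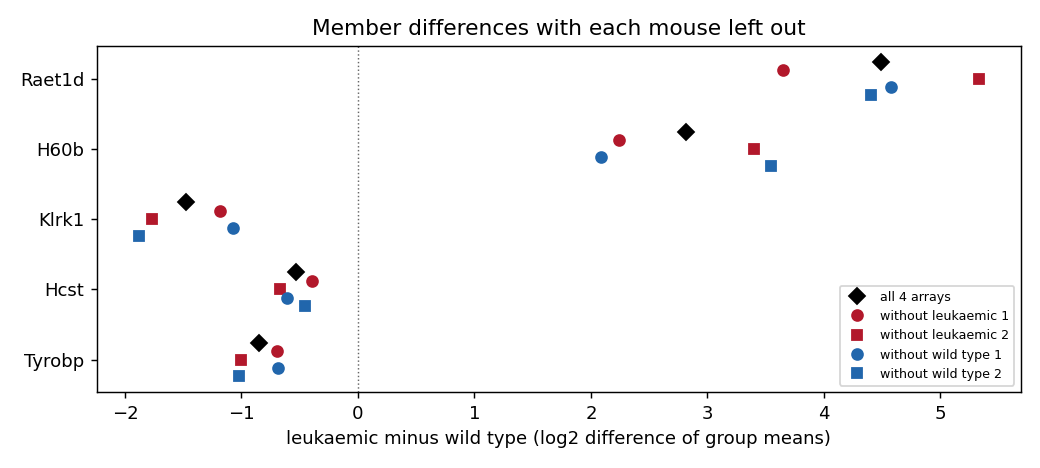
Leukaemic minus wild type difference (log2, horizontal axis) of each member with all 4 arrays (black diamonds), without a leukaemic mouse (red) and without a wild type mouse (blue), circles standing for omission of replicate 1 and squares for omission of replicate 2. Raet1d spreads from 3.65 to 5.33 and H60b from 2.09 to 3.55, and every point of Klrk1, Hcst and Tyrobp lies below 0.

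Low values limit how the folds can be read. Detection calls were not analysed here, and 16 genes of liver, retina and brain, taken as a rough guide to background, had wild type means of 3.69 to 8.65 (median 6.31). The wild type values of both ligand genes and all values of Klrk1 and Hcst lay within that range. So did those of Raet1d (8.62) and H60b (7.93) in leukaemic replicate 2. The top of the range was Mbp alone, and the next highest mean was 7.57 for Apoa1. Of the member values within the range, Klrk1 in wild type replicate 1 and Hcst outside leukaemic replicate 1 were above 7.57. Both ligand genes in leukaemic replicate 2 were also above it. Whether the values within the range exceeded background is unknown, and the differences of these 4 genes cannot be read as exact folds. Wild type replicate 2 also held exocrine pancreas transcripts, with means over 7 acinar genes of 6.84 in both leukaemic spleens, 6.78 in wild type replicate 1 and 12.07 in wild type replicate 2. It was the wild type mouse with the higher H60b and the lower Klrk1, and the part of the pancreas RNA in those values was not tested. As a check of the tissue, 5 genes of B cells in general were read in all 4 spleens. Their means were 11.95 and 12.22 in leukaemic and 12.06 and 11.85 in wild type spleens. The 5 genes did not move alike. Ebf1 was called higher at 1.11 (SE 0.18, limma adjusted p = 0.034). Ms4a1 stood at -0.81, Pax5 at 0.29, Cd79a at 0.08 and Cd79b at -0.04, none called.

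In the order of the mouse gene table, H60b and Raet1d follow each other on chromosome 10 with 2 unmeasured genes between them. The next measured gene beyond Raet1d, Gm10825, rose by 1.70 (SE 0.24, limma adjusted p = 0.026), with 9.69 and 9.66 in leukaemic against 7.62 and 8.34 in wild type spleens. On the other side of H60b, 4930444G20Rik lay at 8.08 and 7.99 in leukaemic against 7.92 and 7.95 in wild type spleens (difference 0.10, SE 0.14).

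Klrk1 lies on chromosome 6 in the NK gene complex between Klrd1, which encodes the CD94 chain that pairs with NKG2A, and Klrc3, an NKG2 family gene. Both neighbours fell. Klrd1 had 5.93 and 6.88 in leukaemic against 8.67 and 8.24 in wild type spleens, a difference of -2.05 (SE 0.31, limma adjusted p = 0.032). Klrc3 had 4.56 and 4.93 in leukaemic against 6.90 and 6.06 in wild type spleens, a difference of -1.73 (SE 0.28, limma adjusted p = 0.036). Tyrobp and Hcst are direct neighbours on chromosome 7. Beyond Hcst, Nfkbid, which encodes a nuclear IκB protein, differed by -0.66 (SE 0.14, limma adjusted p = 0.064). Beyond Tyrobp, Lrfn3 differed by -0.16 (SE 0.14).

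Calls of these and the following genes rest on 2 mice per group. Of 23 called genes outside the members that are named here by rule, 0 remained called without wild type replicate 2 and 1 without wild type replicate 1, and all 23 remained called without either leukaemic mouse. These fits estimate the spread differently (prior degrees of freedom 2.79 without a wild type mouse, infinite without a leukaemic one), so the counts cannot be compared with each other. As an example, the difference of Lat, an adaptor gene described further on, was -1.32 and -1.61 without wild type replicate 1 and 2, and -1.16 and -1.77 without leukaemic replicate 1 and 2.

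Among 10 measured MHC class I-like genes outside the ligand family, 0 were called (median difference -0.22, against -0.03 over all genes). H2-M3, which presents formylated peptides, differed by -0.67 (SE 0.22), and H2-Q10, a secreted class I molecule, by -0.54 (SE 0.15). Mill1 and Mill2, class I-like relatives of the NKG2D ligands, differed by -0.31 and -0.41. Across the 10 genes the differences ran from -0.67 to 0.23.

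Genes linked to ligand induction, degradation or shedding were called in 2 of 18 cases, both higher (median difference 0.17). Chek1, a checkpoint kinase of the DNA damage response, rose with 10.71 and 10.69 in leukaemic against 9.33 and 9.42 in wild type spleens, a difference of 1.32 (SE 0.14, limma adjusted p = 0.011). E2f3, a cell cycle transcription factor, rose with 9.87 and 9.69 in leukaemic against 8.83 and 8.50 in wild type spleens, a difference of 1.12 (SE 0.17, limma adjusted p = 0.032). The kinases Atm and Atr differed by 0.26 and 0.38, and the sheddases Adam10 and Adam17 by -0.07 and 0.09, with no call. Mmp9, a further protease of the list, singled out after its value was seen, had the lowest difference (-1.46, SE 0.34), with 8.31 and 9.41 in leukaemic against 10.14 and 10.48 in wild type spleens, and was not called. Marchf9, an E3 ligase that acts on MULT1, differed by -0.16.

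**Figure D4:**
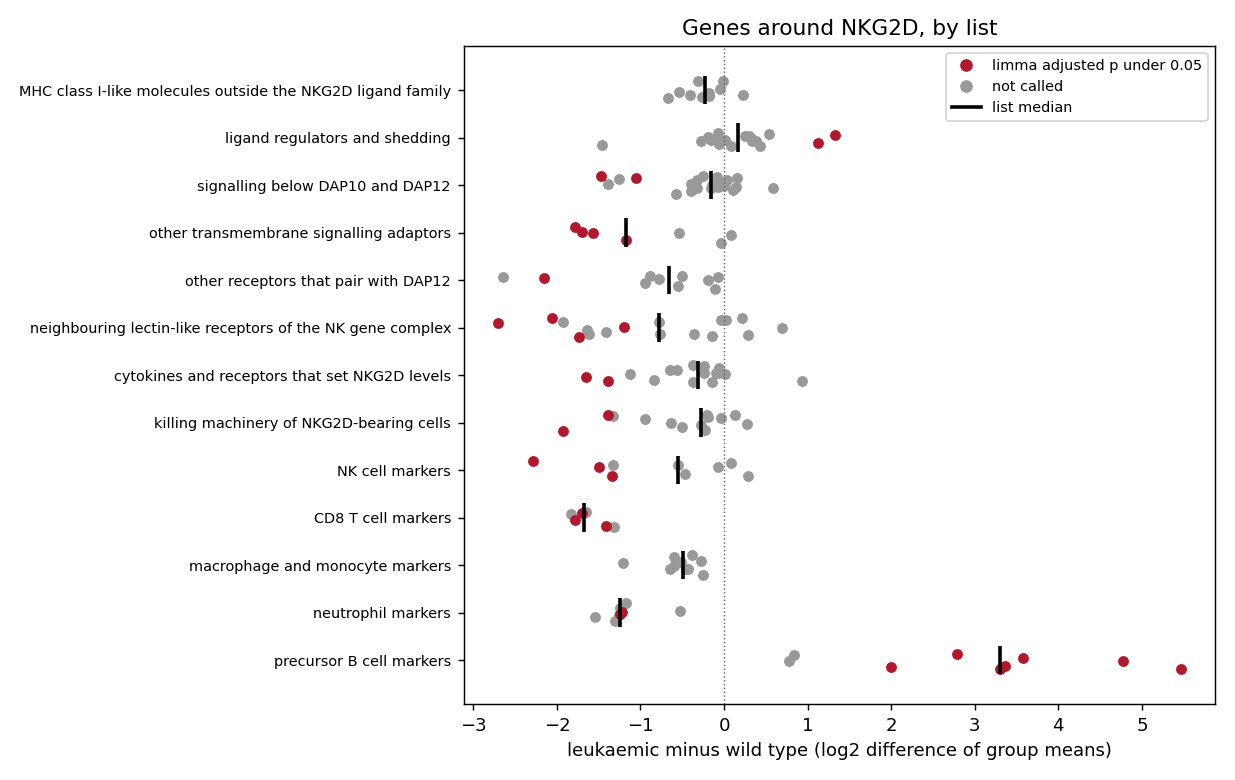
Leukaemic minus wild type difference (log2, horizontal axis) of each measured gene in 8 lists around NKG2D and 5 cell type marker lists, red where limma's adjusted p was under 0.05 and grey otherwise, with a bar at the list median. The adaptor and NK complex lists have called genes only below 0, the list of ligand regulators has its 2 called genes above 0, and the precursor B cell markers lie from 0.78 to 5.47; vertical scatter within a list has no meaning.

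Among genes listed for signalling below DAP10 and DAP12, 2 of 21 fell and none rose. The list was broad, and whether each gene, Sh2d1b1 included, acts below DAP10 or DAP12 was not tested. The differences were negative for 16 and positive for 5 of the 21, with a median of -0.16. Lat, a scaffold of T and NK cell signalling, had 8.77 and 9.38 in leukaemic against 10.69 and 10.39 in wild type spleens and fell by 1.47 (SE 0.23, limma adjusted p = 0.033). Sh2d1b1, the NK cell adaptor EAT-2, had 7.63 and 7.67 in leukaemic against 8.96 and 8.45 in wild type spleens and fell by 1.06 (SE 0.19, limma adjusted p = 0.047). Syk, which DAP12 recruits and B cells also use, had a difference near 0, with 10.72 and 11.25 in leukaemic against 10.97 and 11.00 in wild type spleens. Zap70 differed by -0.58 and Vav1 by -0.14.

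Other transmembrane adaptors with ITAM motifs included 4 of 7 that fell (median -1.17). Among them, 3 were the CD3 chains of the T cell receptor: Cd3g fell by 1.78 (SE 0.33, limma adjusted p = 0.049), Cd3e by 1.70 (SE 0.29, limma adjusted p = 0.039) and Cd3d by 1.57 (SE 0.27, limma adjusted p = 0.038). The other was Cd247, the CD3 zeta chain, at -1.17, which is outside the naming rule and was chosen after its value was seen. Fcer1g, which partners activating receptors of NK and myeloid cells as DAP12 does, had 11.06 in both leukaemic spleens against 11.80 and 11.40 in wild type spleens, a difference of -0.54 that was not called.

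Of 10 other receptors that use DAP12, 1 fell and 0 rose (median -0.66). Siglech, a lectin of plasmacytoid dendritic cells, averaged 7.26 ± 0.015 in leukaemic and 9.41 ± 0.58 in wild type spleens (SD, n = 2 each), a difference of -2.15 (SE 0.26, limma adjusted p = 0.018). All 10 differences were negative, from -2.64 to -0.07. The lowest was that of Pilrb1, singled out after its value was seen, with 6.54 and 9.01 in leukaemic against 10.51 and 10.32 in wild type spleens. The leukaemic mice were 2.47 apart there, and it was not called (SE 0.68).

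Among 17 lectin-like receptor genes of the NK complex, 4 fell and 0 rose (median -0.78). Besides Klrd1 and Klrc3, these were Klra17, a Ly49 family gene, at -2.71 (SE 0.29, limma adjusted p = 0.012), and Clec2i, chosen after its value was seen, at -1.20. Klrc1, the NKG2A gene, differed by -1.93 (SE 0.47) without a call. Not every gene of the complex was lower: Klrg1 differed by 0.69 and Klrb1c by 0.29, neither called. The groups overlapped for Klrg1, and Klrb1c had low means of 5.28 in leukaemic and 4.99 in wild type spleens.

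Of 16 genes for cytokines, receptors and signal carriers that set NKG2D levels, 2 fell (median -0.31). Il2rb, the receptor chain through which NK cells sense IL-2 and IL-15, had 8.01 and 8.88 in leukaemic against 10.19 and 10.01 in wild type spleens, a difference of -1.66 (SE 0.28, limma adjusted p = 0.037). Il21r fell by 1.38 (SE 0.22, limma adjusted p = 0.034). Il15 differed by -0.84, Il12a, which had the highest difference of the list and was singled out after its value was seen, by 0.93 and Tgfb1, which lowers NKG2D, by -0.06, without a call.

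Of 13 genes for killing by NKG2D-bearing cells, 2 fell (median -0.28). Ctsw, a cathepsin of cytotoxic lymphocytes, fell by 1.93 (SE 0.29, limma adjusted p = 0.032), and Nkg7, a granule membrane protein, by 1.39 (SE 0.22, limma adjusted p = 0.033). The perforin gene Prf1 differed by -0.95, and the granzyme genes Gzma and Gzmb by -1.33 and 0.28, without a call.

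Markers of cells that can carry the receptor side were read beside it. Of 9 NK cell markers 3 fell (Ncr1 at -2.29, Eomes at -1.50 and Tbx21 at -1.35), with list means of 6.30 and 6.66 in leukaemic against 7.36 and 7.19 in wild type spleens. Of the others, Klrb1c and Khdc1a were positive at 0.29 and 0.09 and Cma1 stood at -0.08, none called. CD8 T cell markers had means of 8.23 and 9.25 in leukaemic against 10.55 and 10.17 in wild type spleens, and all 6 were lower, 3 of them called. Those 3 were Cd5 and the CD3 chain genes Cd3e and Cd3g, already counted among the adaptors. The CD8 genes Cd8a at -1.65 and Cd8b1 at -1.32 were not called. For Tyrobp, which myeloid cells also express, the means of 10 macrophage and monocyte markers were 10.35 and 10.41 in leukaemic against 11.08 and 10.76 in wild type spleens, with no call. Those of 8 neutrophil markers were 9.39 and 10.43 in leukaemic against 11.11 and 11.09 in wild type spleens, with 2 called lower. The means of 6 dendritic cell markers were 7.66 and 7.78 in leukaemic against 9.12 and 8.82 in wild type spleens. Of these, 5 were called lower, Siglech, already given above, among them. The part of these cell types in the values of Klrk1, Hcst and Tyrobp was not tested. Precursor B cell markers ran the other way, with means of 10.23 and 10.37 in leukaemic against 7.43 and 7.19 in wild type spleens and 7 of 9 genes called higher.

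Genes with similar profiles over the 4 arrays were looked up for each member. Likeness was the root mean square difference between profiles after each gene's mean was subtracted, computed for members whose values spanned at least 1, and it describes 4 arrays only. Nearest to Raet1d were Crhbp at 0.27, Enpep at 0.51 and Lgr5 at 0.68. Nearest to H60b were Gm525 at 0.22, Arpp21 at 0.48 and Akr1c18 at 0.50. The search picks genes that share the direction of the member, so their own differences are not a result. Nearest to Klrk1 were Phf11a at 0.073, Gzma at 0.079 and Eomes, a transcription factor of NK and effector T cells, at 0.092. Nearest to Tyrobp were Smpd5 at 0.012, Fscn1 at 0.018 and Adap1 at 0.032.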

How the data were processed

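Per the labels' protocols, biotinylated cDNA was hybridised to Affymetrix whole-transcript arrays. The authors deposited log2 values, 1 per probe set and array. The submitters' processing notes name RMA, R 2.15.0 and limma 3.12.1, with settings and order not given in the sources used here. Array medians were 7.96 to 8.03, and the number of arrays limits the precision.

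Of 23309 probe sets, 20729 had 1 symbol. The probe set with the highest mean stood for each of 804 genes with several. The comparison of leukaemic with wild type spleens (grouped by title, replicates being individual mice) used lmFit and eBayes of limma 3.58.1 (R 4.3.3) without covariates, with Benjamini-Hochberg adjustment over 19297 genes. The script was tested on simulated data. With 2 against 2, the smallest two-sided exact permutation p is 0.333. Standard errors come from the moderated fit.

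The members and lists were chosen with earlier results of these data known. Named by rule were all members, up to 3 called genes per list (or the 2 of smallest p), the 3 nearest profiles and the measured neighbours. The 9 lists around NKG2D held 131 genes, 111 of them measured; the list of other NKG2D ligands had none. Gamma delta T cell markers (2 of 5 genes measured, 0 called) were also listed. Of the 7 genes considered, 5 had a RefSeq promoter entry (GRCm38.p6), 3 of them with a probe set.

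Alternatives covered scaling, dim genes, the variance prior, probe sets, rows in the fit, a block and each mouse left out.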

Additional observations from a re-analysis of the deposited data

How the results depend on the processing

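Of 11 alternatives, those that change the fit alone cannot move the difference of a member with 1 probe set, and leaving out a mouse moves it by a fixed share of its group's gap. Median centring moves the difference of every gene by the same amount (Raet1d from 4.49 to 4.55), so it could not test a single member. Quantile normalization, which can move genes by different amounts, shifted the 5 members by less than the spread between mice. With all 4 mice kept, between 1 and 4 members passed the call rule over the alternatives. It was 1 after quantile normalization (168 of 19297 genes called higher, 93 lower) and 1 with trend and robust prior settings (509 and 456). With a replicate block it was 4 (785 and 908). Nothing is read from these counts, as the same comparison chose the members. The count of genes called higher (276) and lower (199) did not hold. Quantile normalization gave 168 and 93, and limma's prior with trend and robust settings 509 and 456. With each mouse left out, the counts ran from 0 to 450 higher and from 0 to 593 lower. Both lowest counts were limma's without wild type replicate 2, although 3141 genes there had an unadjusted p under 0.05 (3989 with 4 mice). The fit that omits wild type replicate 1 called 12 higher and 26 lower. These fits have 1 residual degree of freedom, and the cause was not tested. The replicate numbers name individual mice and do not pair them: same-numbered deviations correlated at -0.09 across genes. With the number as a replicate block the counts were 785 and 908. Of the 23 called genes named by rule, 7 remained called after quantile normalization, 20 after median centring and 18 with all probe sets in the fit; 0 changed sign. Wild type levels near background limit the ligand folds.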

Other observations

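The leukaemic mice stood far apart in Raet1d. Of 19297 genes, 64 (0.332%) had a gap between the 2 leukaemic mice at least as wide as its 1.68. For H60b 196 genes (1.02%) had a gap at least as wide as its 1.16. The 2 leukaemic mice also differed in sex, age and spleen weight, and the part of these in the gaps was not tested. In wild type spleen H60b had a gap of 1.46 between mice, which 47 genes (0.244%) matched or passed, while the wild type gap of Raet1d (0.17) was matched or passed by 56.2% of genes.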
